A study of Mus musculus with 4 samples.

Results

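Fragments of small nuclear RNAs (snRNAs) and small nucleolar RNAs (snoRNAs) were followed in small RNA sequencing of mouse sperm. A fragment was a distinct sequence of 18 nt or longer that the deposited annotation labelled only snRNA, or only snoRNA, in at least 1 of the 4 files. There were 4210 such sequences among the 1442059 distinct sequences of that length, 2847 of snRNA and 1363 of snoRNA. The study set 2 libraries labelled Mdd, from C57BL mice given a changing series of daily stressors (restraint, cage tilt, wet bedding, isolation, noise, flashing light and disturbed day length among them), against 2 libraries from C57BL controls left alone except for routine care. It asked how the small non-coding RNAs of sperm differ in stressed mice that show depressive-like behaviour. The protocol in the labels names sperm as the source of the RNA, whereas the tissue and cell type fields name testis and testicular cells, and no age is given. The labels do not say whether replicates are separate animals, and the p-values given here may reflect technical spread alone.

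The libraries held 23748630 and 23806805 reads of 18 nt or longer in Mdd replicates 1 and 2, and 9706895 and 16763277 in control replicates 1 and 2. Levels are reads per 1000000 of those reads (RPM). Reads of 15 to 17 nt, which are left out, made up 1.18% and 1.27% of the Mdd libraries and 24.4% and 26.95% of the control libraries. The file of Mdd replicate 1 did not use the labels snRNA and snoRNA, and its fragments were found through the labels in the other 3 files. A fragment present in that library alone could therefore not be counted, and its sums are lower bounds. The usual number of copies of a sequence was 44 and 7 in Mdd replicates 1 and 2 and 6 and 10 in control replicates 1 and 2, so reads are not independent molecules. It is the peak of the smoothed number of sequences at each copy number, and many fragments had fewer reads. The median was 5 and 6 reads for snRNA fragments in Mdd replicates 1 and 2 and 7 in both control libraries. For snoRNA fragments it was 2 and 10 reads in Mdd libraries and 4.5 and 8 in control libraries. Marker miRNAs of striated muscle summed to 12.5 and 3.86 RPM in Mdd replicates 1 and 2 and to 25.9 and 966 RPM in control replicates 1 and 2, whereas germ cell miRNAs summed to 2155 and 835 RPM and to 1656 and 1623 RPM. All 3 germ cell and all 3 striated muscle markers had reads in every library, and the part of other cells in the results below was not tested. In bulk RNA, fewer cells of a type and less RNA per cell cannot be told apart.

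snRNAs are short nuclear RNAs that, bound to proteins, form the spliceosome: U1 pairs with the 5′ splice site, U2 with the branch point, U5 holds the exons, and U6 forms the catalytic centre after it has unwound from U4. U11 and U12 do the work of U1 and U2 in the minor spliceosome. snoRNAs guide chemical changes of ribosomal RNA in the nucleolus. Those with C and D boxes (Snord genes) guide 2′-O-methylation, those with H and ACA boxes (Snora genes) guide pseudouridylation, and U3, a C/D RNA, is needed to cut the ribosomal RNA precursor. Mature sperm are largely silent in transcription, and the small RNAs they carry are mostly pieces of longer RNAs.

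The sequences below are those of U2, U5, U12, U3 and snoRNA fragments to which the results return, and U6 and U1 are given by position only. They were read from the deposited files, and positions count from the first base of the transcript in GENCODE release M21 (build GRCm38), which each matched exactly. The U2 fragment covers the stretch that pairs with the intron branch point, in capitals, and the U5 fragment holds the uridine run of the site that Sm proteins bind, in capitals. In the snoRNA fragments the capitals mark the letters TGATGA, those of the C box, and CTGA, those of the D box, wherever they occur on the strand shown. A match of letters is not by itself a box.
U2 17 to 47: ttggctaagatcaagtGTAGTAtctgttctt
U5 84 to 108: accaATTTTTTGaggccttgtcttg
U12 117 to 151: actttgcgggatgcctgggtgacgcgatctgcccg
U3 76 to 96: ccacgaggacgagacgtagcg
U3 194 to 211: gagggaacgcagtCTGAg
U3 190 to 211: gagggagggaacgcagtCTGAg
Snord14c 1 to 19: tcgctgTGATGAtggattc
Snord14c 1 to 32: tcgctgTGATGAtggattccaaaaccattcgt
Snord49a 1 to 37: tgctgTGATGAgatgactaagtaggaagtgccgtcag
Gm23969 36 to 72: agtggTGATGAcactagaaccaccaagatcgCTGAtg

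These RNAs come from repeated genes to different degrees, which limits where a fragment can be placed. The U2 fragment matched 19 annotated genes, of which Rnu2-10 (chr11:101658238-101658428, plus strand, GRCm38) gives the positions. The U5 fragment matched only Rnu5g (chr9:65201726-65201841, minus strand) and the U12 fragment only Rnu12 (chr15:83149644-83149794, plus strand). The U3 fragments ending at 211 matched 6 genes, among them Rnu3b1 (chr11:87443237-87443451, plus strand), which lies in an intron of Tex14. The Snord14c fragments matched Snord14c (chr9:40803583-40803668) and Snord14d, both within Hspa8. Snord49a lies at chr11:62603450-62603521 in an intron of the non-coding gene 2410006H16Rik, and Gm23969 at chr2:26911261-26911334 in an intron of Rpl7a, all on the plus strand. U6 fragments matched 480 annotated genes in all, each single fragment between 78 and 318 of them, and are described by their place on Rnu6 (107 nt).

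snRNA fragments took about the same share of reads in both groups. They numbered 119948 and 96763 reads in Mdd replicates 1 and 2, or 0.505% and 0.406% of reads of 18 nt or longer, and 45879 and 82612 reads in control replicates 1 and 2, or 0.473% and 0.493%. The Mdd libraries lay on either side of the control libraries. The means were 0.456% ± 0.0697 in Mdd and 0.483% ± 0.0143 in control libraries (SD, n = 2 each, exact two-sided permutation test, p = 1.0, where 2 against 2 samples allow no p below 0.333). The 95% Wilson interval of a share was at most ± 0.00431 percentage points wide on either side, which covers counting error only.

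snoRNA fragments were rarer in every library and varied more. They numbered 5203 and 14446 reads in Mdd replicates 1 and 2, or 0.0219% and 0.0607%, and 2065 and 6164 reads in control replicates 1 and 2, or 0.0213% and 0.0368%. The groups overlapped: Mdd replicate 2 was highest, and Mdd replicate 1 and control replicate 1 were about equal. The means were 0.0413% ± 0.0274 in Mdd and 0.0290% ± 0.0110 in control libraries (SD, n = 2 each, exact permutation test, p = 0.667). Leaving out Mdd replicate 2 turned the difference from 0.0123 to -0.00711 percentage points. When fragments were instead found by exact match to GENCODE snoRNA transcripts, which treats the 4 files alike, the shares were 0.0367% and 0.0792% in Mdd libraries and 0.0272% and 0.0428% in control libraries. Of those reads, 40.4% and 23.4% in the Mdd libraries and 21.9% and 13.99% in the control libraries carried no snoRNA label in any file. For snRNA the same count gave 0.532% and 0.410% against 0.477% and 0.4998%, with 0.818% to 5.05% of reads outside the labels.

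The snRNA fragments had a set of preferred lengths rather than 1 peak. Their most frequent length was 31 nt in Mdd replicate 1 and 28 nt in Mdd replicate 2, and 31 nt in both control libraries, with 7.995%, 10.3%, 10.01% and 15.4% of snRNA reads at that length. The mean length was 28.4 and 29.4 nt in Mdd libraries and 28.5 and 27.1 nt in control libraries, and the groups overlapped (28.9 ± 0.665 against 27.8 ± 0.965 nt, SD, n = 2 each, exact permutation test, p = 0.667). snoRNA fragments were shorter, most often 20 and 21 nt in Mdd replicates 1 and 2 and 21 and 19 nt in control replicates 1 and 2. Their mean length was 27.3 and 27.4 nt in Mdd libraries and 26.9 and 25.3 nt in control libraries. Here the groups did not overlap (27.3 ± 0.0509 against 26.1 ± 1.11 nt, SD, n = 2 each, exact permutation test, p = 0.333, the smallest possible). Fragments of 36 nt or longer held 16.7% and 15.6% of snRNA reads in Mdd libraries, and 18.6% and 5.01% in control libraries. Control replicate 2 was low in such lengths over all its reads as well, with 2.92%, against 8.33% and 9.75% in Mdd libraries and 9.14% in control replicate 1. The part of that library's length profile in the difference of mean lengths was not tested.

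**Figure D1:**
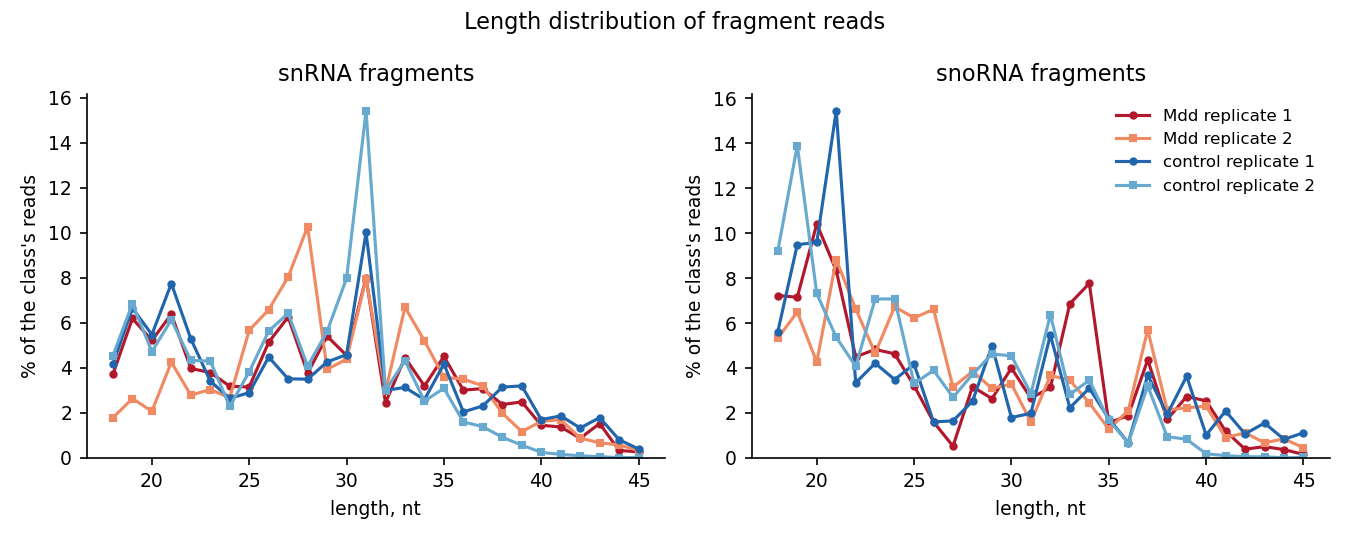
Share of each class's reads (y axis, %) at each length in nt (x axis) for snRNA (left) and snoRNA (right) fragments, 1 line per library. snRNA reads of 31 nt reach 15.4% in control replicate 2, and between 42.9% and 54.02% of snoRNA reads lie at 18 to 24 nt.

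U6 made up most of the snRNA reads in every library. U6 fragments stood at 4233 and 3466 RPM in Mdd libraries and at 3603 and 3408 RPM in control libraries. That was 83.8% and 85.3% of snRNA reads in Mdd libraries and 76.2% and 69.2% in control libraries. The U6 levels overlapped between groups (3850 ± 543 against 3505 ± 138 RPM, SD, n = 2 each, exact permutation test, p = 0.667), with a log2 ratio of means of 0.14. When reads from 15 nt were counted, U6 stood at 4184 and 3422 RPM in Mdd libraries and at 2852 and 2724 RPM in control libraries, without overlap (log2 ratio 0.45, exact permutation test, p = 0.333). Those levels are per 1000000 reads of all lengths, so the scale itself differs between the groups. Reads of 15 to 17 nt were 1.18% and 1.27% of Mdd libraries and 24.4% and 26.95% of control libraries. Their part in this separation was not tested.

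U1, U2 and U5, the other named snRNAs of the major spliceosome, were lower in both Mdd libraries than in both control libraries. U2 stood at 391 and 112 RPM in Mdd libraries and at 536 and 959 RPM in control libraries, a log2 ratio of means of -1.57. U1 stood at 118 and 185 RPM against 213 and 209 RPM in control libraries, a log2 ratio of -0.48. U5 stood at 15.5 and 16.05 RPM in Mdd libraries and at 28.02 and 43.97 RPM in control libraries, a log2 ratio of -1.19. None of the groups overlapped for U1, U2 or U5, and each exact permutation test gave p = 0.333, the smallest that this design allows, so no difference passed a threshold of 0.05. Without overlap a log2 ratio cannot change sign when a single library is left out, so only its size is informative. The U2 ratio was then between -2.75 (without Mdd replicate 1) and -0.94 (without Mdd replicate 2), and the U1 ratio between -0.83 (without Mdd replicate 2) and -0.19 (without Mdd replicate 1). The sum of U1, U2 and U5 was 525 and 313 RPM in Mdd libraries and 777 and 1212 RPM in control libraries (419 ± 150 against 994 ± 308 RPM, SD, n = 2 each). The ratio of U6 reads to those of U1, U2 and U5 together was 8.07 and 11.1 in Mdd libraries and 4.64 and 2.81 in control libraries, again without overlap (exact permutation test, p = 0.333). Found by sequence match in all 4 files, U1 stood at 169 and 185 RPM in Mdd libraries and 213 and 209 RPM in control libraries, and U5 at 39.9 and 27.8 RPM against 42.3 and 67.1 RPM, so the groups still did not overlap but the log2 ratios were -0.25 and -0.69. The separation of U5 did not extend to its close copies: the group of overlapping fragments that joins U5 with Gm25313, described below, stood at 21.8 and 53.7 RPM in Mdd libraries and at 33.4 and 50.9 RPM in control libraries, with overlap.

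**Figure D2:**
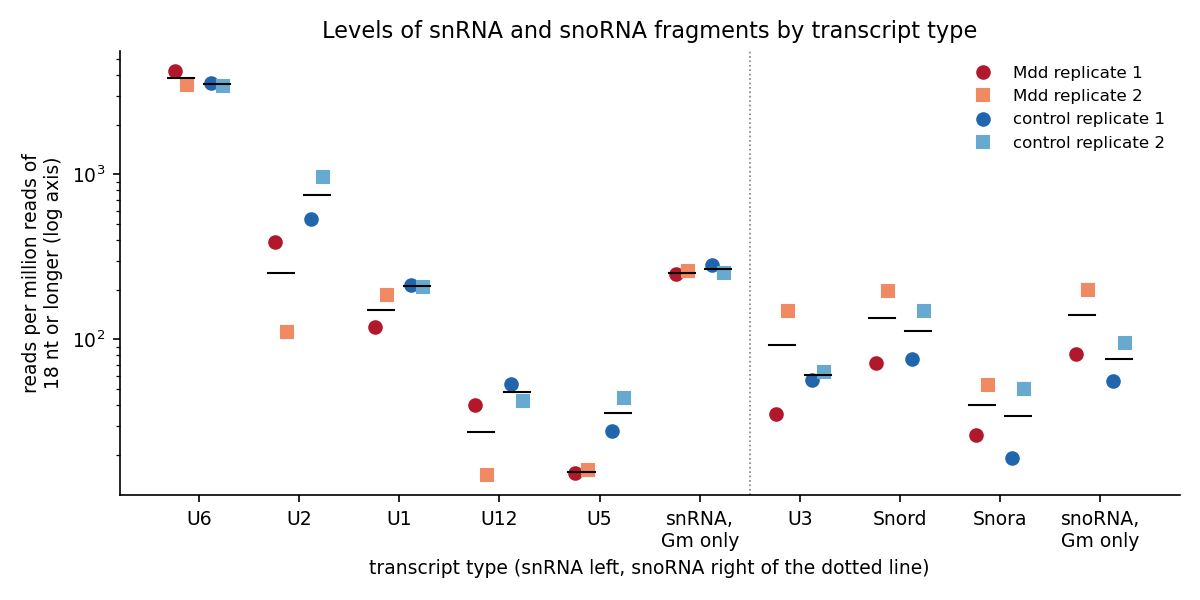
Level of fragments by transcript type (y axis, RPM, log scale), 1 point per library, with Mdd left of control in each type and a black line at each group's mean. The points of U2, U1, U12 and U5 do not overlap between groups, and those of U6 and of all snoRNA types do.

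In the minor spliceosome, U12 was the main contributor. U12 stood at 40.2 and 15.04 RPM in Mdd libraries and at 53.5 and 42.6 RPM in control libraries, without overlap (log2 ratio -0.80, exact permutation test, p = 0.333). With 1 library left out the ratio was between -1.68 (without Mdd replicate 1) and -0.26 (without Mdd replicate 2). By sequence match Mdd replicate 1 had 51.4 RPM, between the control libraries, so that the groups then overlapped. U11 had 2 and 146 reads in Mdd libraries and 30 and 116 reads in control libraries, too few to set an order. U7, which acts in the 3′ end processing of histone mRNAs, stood at 2.65 and 2.73 RPM in Mdd libraries and at 2.68 and 1.43 RPM in control libraries. The annotation used here gives no snRNA transcript a name of U4, U4atac or U6atac. Fragments of these RNAs, if placed on a gene that carries only a Gm number, are counted there, and no value is given for them by name.

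snRNA genes that carry only a Gm number together stood at 247 and 260 RPM in Mdd libraries and at 282 and 253 RPM in control libraries, with overlap. Their leading pair, Gm24265 and Gm24407, are neighbouring genes of 141 nt on chromosome 5. The best local alignment of either with the named U1, U2, U5, U6, U7, U11 and U12 genes spanned 9 positions. Which snRNA they encode was not tested. The group of overlapping fragments around Gm24265 stood at 141 and 66.7 RPM in Mdd libraries and at 148 and 105 RPM in control libraries, with overlap. Gm24265 alone stood at 75.8 and 33.9 RPM in Mdd libraries and at 84.7 and 45.8 RPM in control libraries. Gm25313 is 97.4% identical to Rnu5g, and it stood at 6.32 and 37.7 RPM in Mdd libraries and at 5.25 and 6.98 RPM in control libraries. Mdd replicate 2 was thus high for this U5 copy, while the U5 fragments of Rnu5g were about equal in the 2 Mdd libraries. The 4 genes Gm23444, Gm23472, Gm24497 and Gm25939, each of 191 nt and 98.4% to 99.5% identical to Rnu2-10, shared fragments at 5.22 and 8.32 RPM in Mdd libraries and at 11.8 and 14.8 RPM in control libraries, without overlap. Copies this alike share reads, so a fragment may derive from more genes than it was placed on.

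U6 fragments came almost wholly from the middle of the molecule. Between 88.4% and 97.3% of U6 reads in the 4 libraries covered positions 47 to 60, which include the AGC triad at 53 to 55, and the first 25 positions began only 4.38% and 1.41% of U6 reads in Mdd libraries and 6.71% and 1.23% in control libraries. The ACAGAGA box, the part of U6 that pairs with the 5′ splice site, lies at 41 to 47, where many fragments begin. Starts at 43 to 47 held 43.1% and 42.4% of U6 reads in Mdd libraries and 40.0% and 48.4% in control libraries. The start was thus spread over many positions, and the 3′ end was not.

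Most U6 reads ended at 1 of 3 places 7 nt apart. Ends at position 64 held 61.6% and 20.9% of U6 reads in Mdd libraries and 68.2% and 51.2% in control libraries. Ends at 71 held 23.3% and 61.7% in Mdd libraries and 17.9% and 29.1% in control libraries. Ends at 78 held 6.98% and 6.91% in Mdd libraries and 5.69% and 8.90% in control libraries. Mdd replicate 2 stood apart from the other 3 libraries, with more reads ending at 71 than at 64, while Mdd replicate 1 lay between the control libraries for both ends. The groups overlapped at both ends (exact permutation test, p = 0.667 each).

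The difference in ends of Mdd replicate 2 ran through the whole range of starts. For the 21 start positions from 27 to 47 the ratio of reads ending at 71 to reads ending at 64 was highest in Mdd replicate 2 at 20 of them. The median of those ratios was 0.401 in Mdd replicate 1 and 2.09 in Mdd replicate 2, and 0.253 and 0.320 in control replicates 1 and 2. Over all starts it was 0.379 and 2.95 in Mdd libraries and 0.262 and 0.568 in control libraries. In all 4 libraries the ratio was lower for the 8 starts from 27 to 34, where a fragment with the later end is 38 nt or longer, than for the 13 starts from 35 to 47. Its median over the first was 0.129 and 0.863 in Mdd libraries and 0.154 and 0.0185 in control libraries, and over the others 0.472 and 3.14 in Mdd libraries and 0.339 and 0.563 in control libraries.

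**Figure D3:**
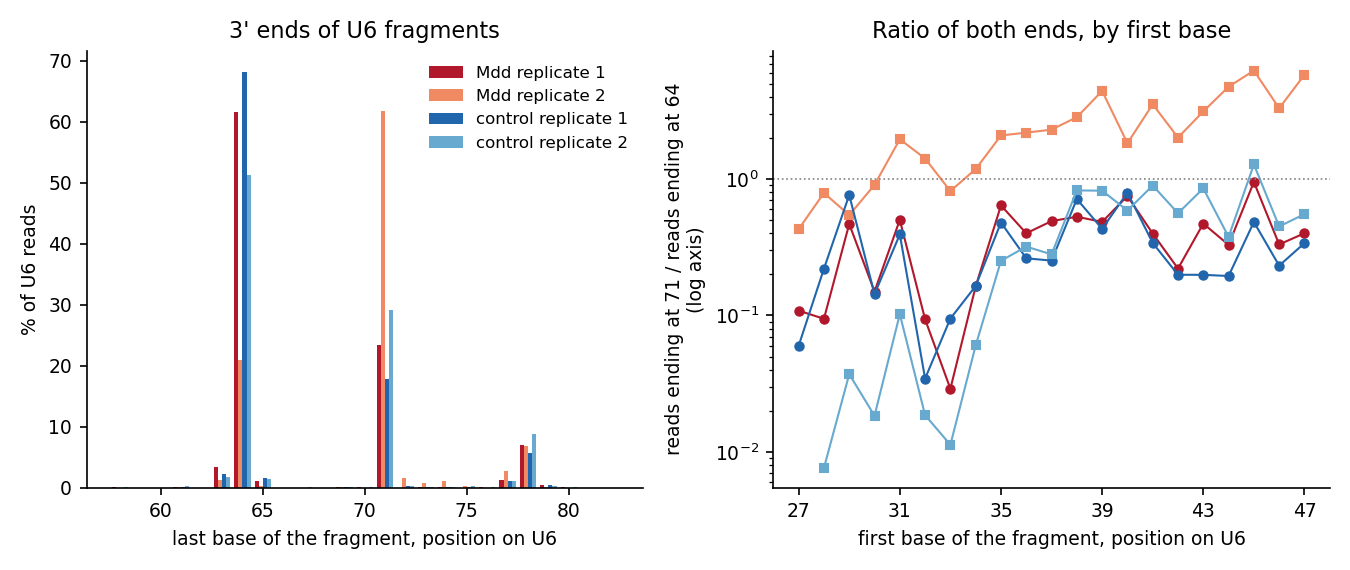
Left, share of U6 reads (y axis, %) whose last base lies at each position of U6 (x axis). Right, ratio of reads ending at 71 to reads ending at 64 (y axis, log scale) for each first base (x axis), where control replicate 2 has no point at 27 because it had 0 reads ending at 71. Mdd replicate 2 holds 61.7% of its U6 reads at 71, against 17.9% to 29.1% in the other 3 libraries.

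U2 reads were largely a single fragment. Reads that start at position 17 held 90.8% and 66.9% of U2 reads in Mdd libraries and 84.1% and 90.0% in control libraries, and nearly all of those ended at 46 or 47. The 31-nt sequence from 17 to 47 alone had 231 and 56.3 RPM in Mdd libraries and 327 and 620 RPM in control libraries, the highest mean of any snRNA or snoRNA fragment. Its length is that of the peak at 31 nt seen in 3 of the 4 libraries. It was lower in both Mdd libraries, with an edgeR log2 fold change of -1.59 ± 0.91 (SE), and did not pass after Benjamini-Hochberg adjustment over all sequences (adjusted p = 0.711). The sequence 1 base shorter, 17 to 46, stood at 104 and 16.5 RPM in Mdd libraries and at 113 and 215 RPM in control libraries. U2 reads from elsewhere, most of them between 93 and 116, stood at 36.2 and 36.9 RPM in Mdd libraries and at 85.2 and 95.6 RPM in control libraries. Both parts of U2 thus gave groups without overlap (exact permutation test, p = 0.333 each), with log2 ratios of -1.61 for starts at 17 and -1.31 for the rest.

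**Figure D4:**
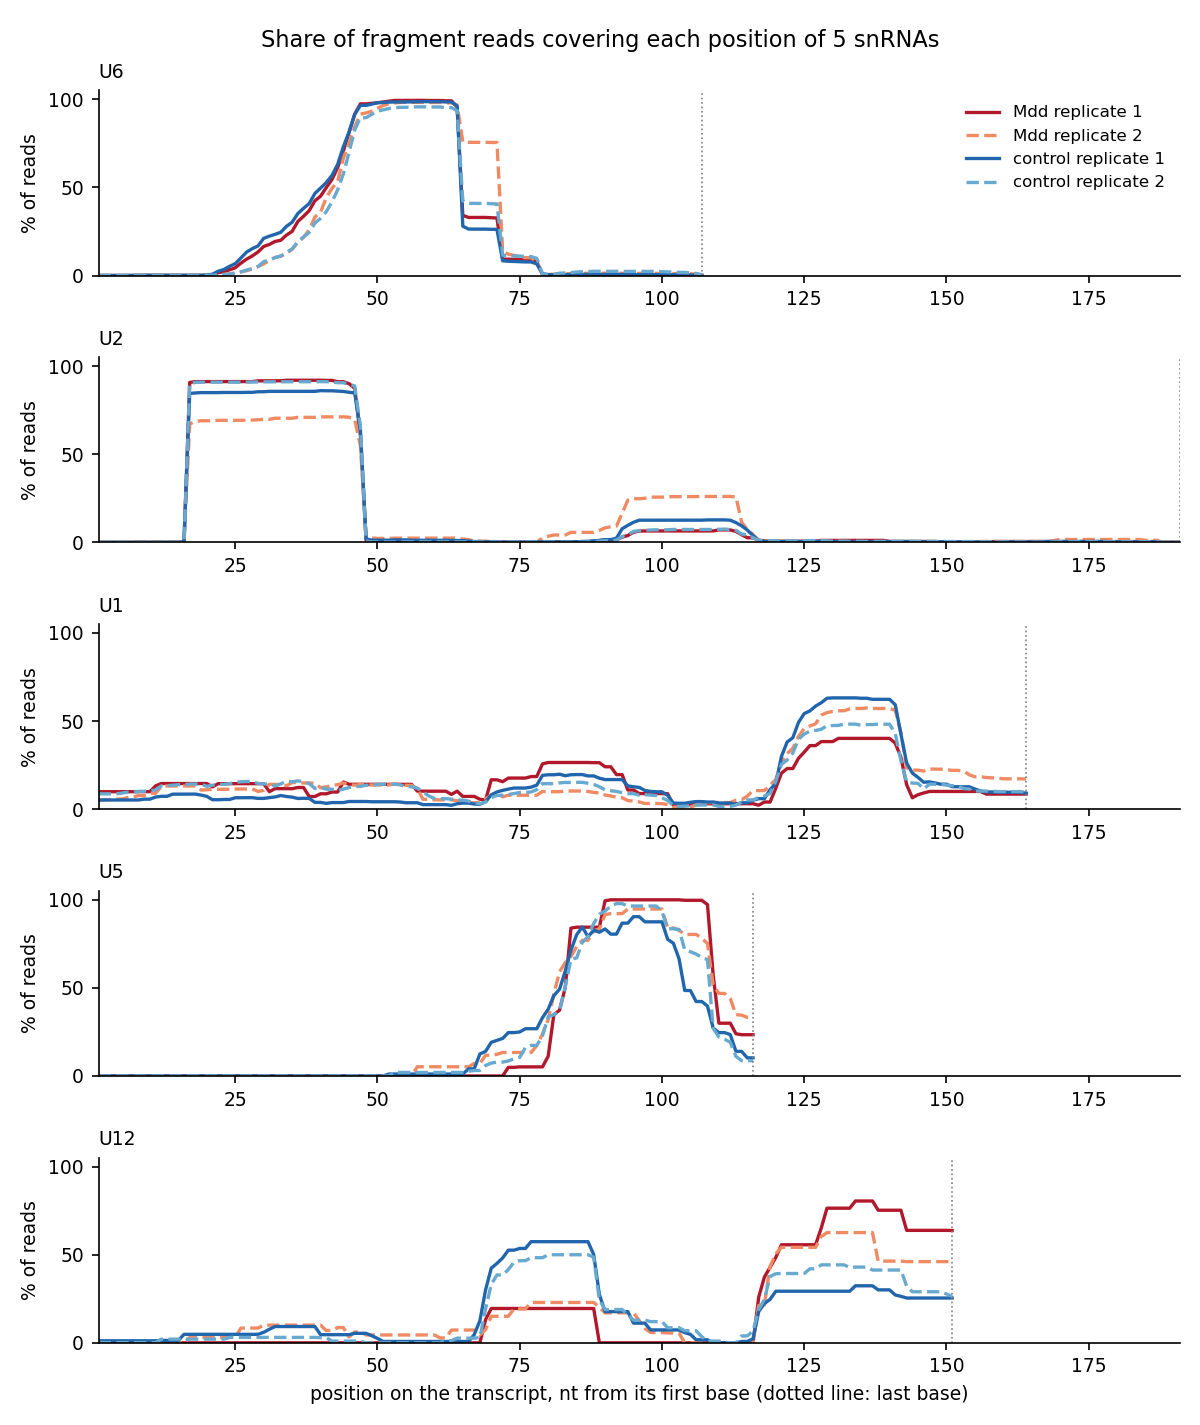
Share of each RNA's fragment reads (y axis, %) that cover each position (x axis, nt from the first base) for U6, U2, U1, U5 and U12, 1 line per library. U6 reads lie over 47 to 60, U2 reads over 17 to 47 with a smaller block at 93 to 116, and U5 reads in the 3′ part of the RNA.

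U5 fragments came from the 3′ part of the RNA, with 100% and 94.8% of U5 reads in Mdd libraries and 93.4% and 98.0% in control libraries centred in the last of 3 equal parts. The sequence from 84 to 108 spans the Sm-type run ATTTTTTG at 88 to 95 and had 124 and 13 reads in Mdd libraries and 0 and 41 reads in control libraries. U12 reads formed blocks from 69 to 88 and from 117 to the 3′ end. The last of 3 equal parts held 80.5% and 62.6% of U12 reads in Mdd libraries and 32.4% and 46.9% in control libraries, without overlap, on between 358 and 954 reads a library. The U12 fragment from 117 to 151 had 138 and 75 reads in Mdd libraries and 80 and 58 reads in control libraries. The block of fragments around 69 to 88 stood at 7.83 and 3.44 RPM in Mdd libraries and at 30.7 and 21.3 RPM in control libraries, and the block at 117 to 151 at 32.3 and 9.41 RPM against 17.3 and 19.98 RPM. Both Mdd libraries were thus lower than both control libraries in the inner block. In the 3′ block Mdd replicate 2 was lower and Mdd replicate 1 higher than both control libraries. The block values are lower bounds in Mdd replicate 1, where U12 stood at 40.2 RPM by label and at 51.4 RPM by sequence match. U1 reads were the most spread out: 44.8% and 62.1% in Mdd libraries and 66.2% and 55.2% in control libraries were centred in the last of 3 equal parts, which holds the Sm site at 125 to 133, and the first part held 24.9% in both Mdd libraries and 11.7% and 25.1% in control libraries.

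Among snoRNAs no single RNA dominated. Snord genes stood at 72.4 and 197 RPM in Mdd libraries and at 76.3 and 149 RPM in control libraries. U3 stood at 35.2 and 149 RPM in Mdd libraries and at 57.0 and 63.8 RPM in control libraries. Snora genes stood at 26.4 and 53.2 RPM in Mdd libraries and at 19.1 and 50.05 RPM in control libraries. snoRNA genes with only a Gm number stood at 81.1 and 199 RPM in Mdd libraries and at 56.0 and 95.1 RPM in control libraries. Mdd replicate 2 was the highest library for each of these 4 groups, and all 4 overlapped between Mdd and control libraries (exact permutation tests, p = 0.667 to 1.0). By sequence match the Gm-numbered genes stood at 115 and 231 RPM in Mdd libraries and at 72.8 and 112 RPM in control libraries, without overlap (log2 ratio 0.91, exact permutation test, p = 0.333), and the other 3 still overlapped. RNAs of the Cajal body (Scarna genes) had 2 labelled sequences, with 0 and 9 reads in Mdd libraries and 12 and 0 reads in control libraries. That is at or near the floor of 3 reads a library, or of 18 to 132 reads when multiplied by the usual copies. Sequence match found Scarna reads in all 4 libraries, so the counts of 0 are of labelled fragments and do not show absence. Of those, 10 sequences at the 5′ end held 81.4% and 28.6% in Mdd libraries and 46.9% and 23.5% in control libraries.

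After U3, the snoRNA genes of highest mean level were Snord14c with its copy Snord14d, Gm23969, Gm25506, Snord32a, Snord8, Snord49a and Snora7a. Snord14c and Snord14d fragments stood at 18.8 and 10.4 RPM in Mdd libraries and at 10.6 and 40.7 RPM in control libraries. Gm23969 stood at 20.3 and 17.4 RPM in Mdd libraries and at 6.90 and 9.49 RPM in control libraries, and Gm25506 at 11.96 and 20.7 RPM against 9.48 and 5.85 RPM. Those 2 were higher in both Mdd libraries than in both control libraries (log2 ratios 1.20 and 1.09, exact permutation test, p = 0.333 each). Snord32a, which lies in an intron of Rpl13a, stood at 0.590 and 25.2 RPM in Mdd libraries and at 12.8 and 2.98 RPM in control libraries. Snord49a stood at 0.590 and 25.03 RPM in Mdd libraries and at 2.16 and 3.22 RPM in control libraries. For these 2, the Mdd libraries were the highest and the lowest of the 4, and in Mdd replicate 1 both had 14 reads, less than the usual 44 copies of 1 sequence there. Snord8, in an intron of Chd8, and Snora7a, within Rpl32, overlapped between groups, at 11.6 and 4.87 RPM against 3.40 and 12.7 RPM and at 6.95 and 6.76 RPM against 2.06 and 14.3 RPM. A gene name here is the set of genes that a fragment matched, so 1 gene can enter several names. Each named U RNA counts as 1 name. Outside joined sets were 133 of 369 snRNA names and 178 of 224 snoRNA names. Of the 224 snoRNA gene names, 66 had reads in all 4 libraries and 92 in 1 library only. Of those 66, 17 were higher and 7 lower in both Mdd libraries than in both control libraries, and of the 78 snRNA gene names with reads in all 4, 8 were higher and 24 lower. That is 25.8% and 10.6% of the snoRNA names and 10.3% and 30.8% of the snRNA names. Among the 32727 annotated sequences with reads in all 4 libraries, 9.69% were higher and 23.3% lower. These are single sequences, whereas a name sums its sequences, so the units differ. The names rest on labelled fragments, so the sums of Mdd replicate 1 are lower bounds. Of its reads found by sequence match, 40.4% for snoRNA and 5.05% for snRNA were outside the labels. In the other libraries these were 13.99% to 23.4% and 0.818% to 1.43%. Names were not counted by sequence match. Under the edgeR test given below, 0.00% of annotated sequences passed, so these counts are descriptions.

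snoRNA fragments came mainly from the ends of their transcripts. Fragments whose last base lay within 5 nt of the transcript's end held 46.4% and 71.2% of snoRNA reads in Mdd libraries and 45.4% and 36.6% in control libraries. Fragments that began in the first 6 positions held 39.2% and 12.3% in Mdd libraries and 31.2% and 39.5% in control libraries. Mdd replicate 2 again stood apart, towards the 3′ end. For Snord genes the 3′ share was 19.8% and 63.1% in Mdd libraries and 38.3% and 23.96% in control libraries, so the Mdd libraries bracketed the control libraries. For Snora genes it was 43.3% and 81.4% in Mdd libraries and 47.03% and 48.4% in control libraries, and for U3 46.7% and 79.2% against 45.8% and 38.3%. U3 differed in that 52.5% and 20.4% of its reads in Mdd libraries and 46.5% and 42.8% in control libraries lay inside the transcript. Over all snoRNAs that inner part was 14.4% and 16.5% in Mdd libraries and 23.3% and 23.9% in control libraries. With fragments found by sequence match, the 3′ share over all snoRNAs was 44.5% and 70.6% in Mdd libraries and 45.6% and 39.2% in control libraries, and for Snord genes 36.4% and 64.4% against 43.5% and 31.6%. For U3 it was then 32.2% and 79.2% in Mdd libraries and 45.8% and 38.3% in control libraries. Mdd replicate 1 was thus above both control libraries for U3 by label and below both by sequence match.

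**Figure D5:**
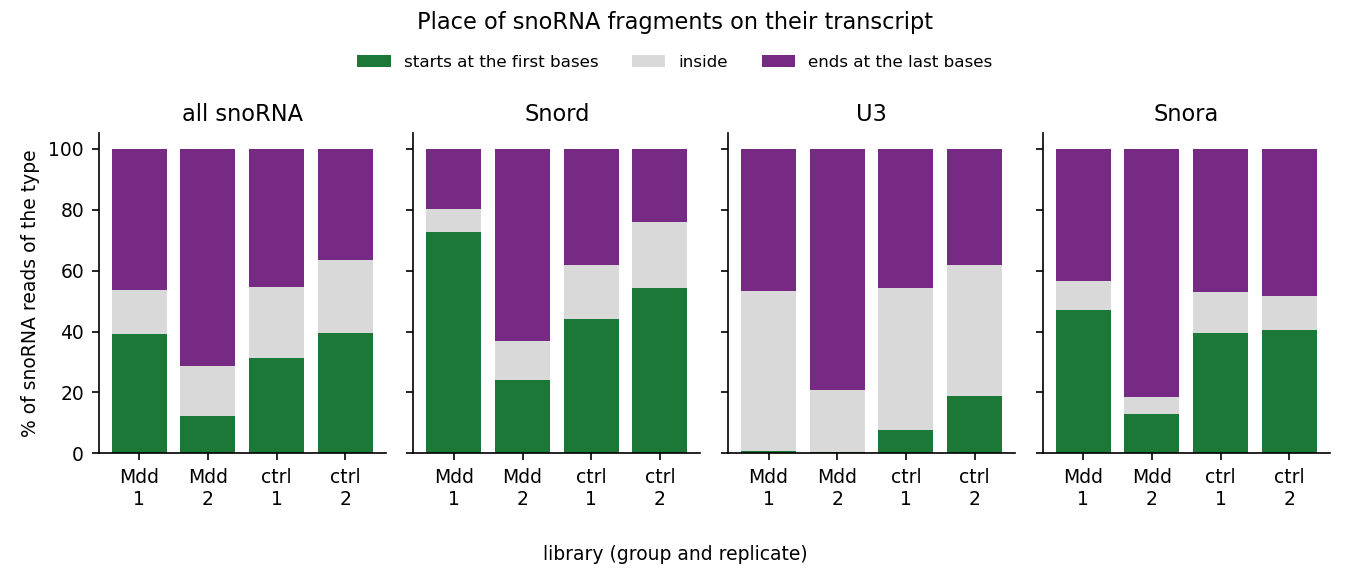
Share of snoRNA reads (y axis, %) that begin in the first 6 positions (green), lie inside (grey) or end within 5 nt of the last base of the transcript (purple), per library (x axis), for all snoRNAs, Snord genes, U3 and Snora genes. The purple part is largest in Mdd replicate 2 in every panel, at 71.2% over all snoRNAs.

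The 3′ fragments of U3 showed the same library apart. Reads ending at position 211, 4 nt before the end of the 215-nt transcript, held 33.9% and 68.1% of U3 reads in Mdd libraries and 32.5% and 21.03% in control libraries. Their starts differed between libraries. The 18-nt fragment from 194 to 211 had 163 and 433 reads in Mdd libraries and 14 and 49 reads in control libraries, or 6.86 and 18.2 RPM against 1.44 and 2.92 RPM, and was higher in both Mdd libraries. The 22-nt fragment from 190 to 211 had 5 and 358 reads in Mdd libraries and 14 and 27 reads in control libraries, so that only Mdd replicate 2 was high. The inner fragment from 76 to 96 had 126 and 300 reads in Mdd libraries and 89 and 71 reads in control libraries, or 5.31 and 12.6 RPM against 9.17 and 4.24 RPM, with overlap. The fragments ending at 211 carry the letters CTGA near their 3′ end, as the sequences above show.

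The box letters followed the class of snoRNA. TGATGA occurred in 105 of 484 Snord fragments (21.7%), in 46 of 182 U3 fragments and in 0 of 167 Snora fragments, against 0.717% of the 430951 annotated sequences of 18 nt or longer and 0 of 2847 snRNA fragments. CTGA occurred in 74.8% of Snord fragments and 2.99% of Snora fragments, against 10.8% of annotated sequences. Both were searched on the strand read only, and a fragment can hold both. By reads, TGATGA was in 67.9% and 21.5% of Snord reads in Mdd libraries and in 41.97% and 57.5% in control libraries. CTGA was in 36.01% and 73.2% in Mdd libraries and in 59.4% and 35.8% in control libraries. The C box lies near the 5′ end of such RNAs and the D box near the 3′ end, and Mdd replicate 2 was lowest for the first and highest for the other.

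Single fragments swapped places between libraries even within 1 gene. Snord14c 1 to 19 had 253 and 12 reads in Mdd libraries and 23 and 346 reads in control libraries, while the 32-nt fragment with the same start had 12 and 124 reads in Mdd libraries and 48 and 182 reads in control libraries. Snord49a 1 to 37 had 13 and 440 reads in Mdd libraries and 11 and 49 reads in control libraries. Gm23969 36 to 72, which holds both runs of letters (TGATGA here in the middle of the RNA), had 203 and 87 reads in Mdd libraries and 36 and 115 reads in control libraries, and overlapped between groups on the RPM scale. The first Snord14c fragment was thus high in 1 library of each group, and Snord49a in Mdd replicate 2 alone.

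Each sequence was also tested with edgeR, in a fit over all annotated sequences of 18 nt or longer that passed a filter on low counts. Of 79093 sequences tested, 0.00% passed an adjusted p of 0.05, with 10486 at an unadjusted p under 0.05. Of the 2847 snRNA fragments 450 passed the filter, 0 were called and 55 had an unadjusted p under 0.05. Of the 1363 snoRNA fragments 105 passed the filter, 0 were called and 4 had an unadjusted p under 0.05. DESeq2 called 198 sequences in all (0.250%), 2 of them of snRNA (0.444% of those tested) and 0 of snoRNA, where 9 had an unadjusted p under 0.05. The lowest adjusted p among these fragments in edgeR was 0.194. The tested snRNA fragments had a median log2 fold change of 0.15, with 240 above 0 and 210 below, and the snoRNA fragments 0.98, with 78 above and 27 below, beside -0.07 over all sequences tested. Scaling by library size alone moved the median of all sequences to -0.37, that of snRNA fragments to -0.16 and that of snoRNA fragments to 0.52, so the direction of the snRNA median depends on the scaling. The tested snoRNA fragments held 69.4% and 34.5% of snoRNA reads in Mdd libraries and 46.9% and 41.2% in control libraries. With 1 library left out, which also changed the sequences tested, the snoRNA median ran from -3.60 (without Mdd replicate 2) to 6.46 (without control replicate 2). The median of all sequences was then -4.36 and 1.61. The direction of the snoRNA median thus depends on Mdd replicate 2. Without Mdd replicate 1, edgeR called 19 of 822 snRNA fragments (2.31%) and 6 of 397 snoRNA fragments (1.51%), all higher in Mdd, beside 1.47% of all 146831 sequences then tested, with 1.42% called higher in Mdd. That fit takes its spread from the control libraries and assumes that the single Mdd library varies like them. Without any other single library the count was 0 in both classes.

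Within U6 the fold changes followed the 3′ end. Of the 28 fragments ending at 71, 27 were tested and all 27 had log2 fold changes above 0, with a median of 1.62. Of the 28 ending at 64, 8 lay above 0 and 20 below, with a median of -0.13. These fragments overlap and share their RNA, and none was called by edgeR. U6 44 to 71 had 79.2 and 321 RPM in Mdd libraries and 53.1 and 75.6 RPM in control libraries, a log2 fold change of 2.20 ± 1.12 (SE, edgeR adjusted p = 0.580), which was 0.25 without Mdd replicate 2. U6 46 to 64 had 255 and 55.9 RPM in Mdd libraries and 254 and 246 RPM in control libraries (-0.56 ± 0.83, edgeR adjusted p = 1.0), and -0.013 without Mdd replicate 2. In the first Mdd replicate 2 was the highest of the 4 libraries, and in the second it was the lowest while the other 3 were alike. The 2 fragments that DESeq2 called were U6 32 to 71, with 134 and 805 reads in Mdd libraries and 10 and 12 reads in control libraries (DESeq2 adjusted p = 0.0301, edgeR adjusted p = 0.274), and U6 30 to 65, with 0 reads in both Mdd libraries and 72 and 55 reads in control libraries (DESeq2 adjusted p = 0.0424, edgeR adjusted p = 0.257). The last ends 1 base past the common site. For U2, 8 of the 40 tested fragments lay above 0 and 32 below, with a median log2 fold change of -1.52.

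Many of the fragments of lowest p had few reads. U3 194 to 211, given above, was among them with more reads (log2 fold change 3.03 ± 1.12, edgeR adjusted p = 0.369). On the lower side, U2 88 to 116 had 0 reads in both Mdd libraries and 5 and 11 in control libraries, Snord110 35 to 66 had 0 reads in both Mdd libraries and 7 and 14 in control libraries, and U3 194 to 212 had 0 reads in both Mdd libraries and 7 and 23 in control libraries. On the higher side, U1 42 to 71 had 29 and 21 reads in Mdd libraries and Gm22988 31 to 53 had 30 and 29, each with 0 reads in both control libraries. The counts in Mdd replicate 1 lie under its usual 44 copies of a sequence, and a count of 0 there allows up to 132 reads when the floor of 3 is multiplied by those copies, so no fold change is given. U3 195 to 213, like U3 194 to 212, ends beyond position 211, and it had 0 reads in both Mdd libraries and 22 and 27 in control libraries.

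The snRNA class was a core of shared fragments with many rare ones, and the snoRNA class was mostly rare ones. The 206 snRNA fragments found in all 4 libraries held 91.2% and 83.2% of snRNA reads in Mdd libraries and 85.7% and 84.3% in control libraries. The 41 snoRNA fragments found in all 4 held 35.2% and 22.4% of snoRNA reads in Mdd libraries and 29.2% and 23.7% in control libraries, and 72.9% of the snoRNA sequences were found in 1 library only. Joined by shared runs of 18 nt, the fragments fell into 60 snRNA and 278 snoRNA groups of overlapping sequences. The largest, around U6 46 to 64, held 1452 sequences with U6 and its copies, at 85.5% and 88.4% of snRNA reads in Mdd libraries and 78.1% and 70.8% in control libraries. When counts were summed per group of overlapping sequences, edgeR called 0 of them. snRNA reads began with A in 49.3% and 47.3% of cases in Mdd libraries and in 45.2% and 41.3% in control libraries, against 12.7% to 17.8% of all reads of 18 nt or longer.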

How the data were processed

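Per the file headers, the authors gave each distinct sequence of 15 to 45 nt a raw read count, a length in nt, a genome mark and an annotation. Per the labels, RNA of 18 to 40 nt was selected. The submitters' processing notes name mm9 and DESeq2. No aligner or annotation source is given in the sources used here.

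Files were joined by sequence. Fragments were placed by exact match to GENCODE M21 (GRCm38) snRNA and snoRNA transcripts. No mm9 coordinate was used. The members, lists and tests were chosen with earlier results of these data known. Named were, per class, the 8 sequences, families and genes of highest mean level and the 3 sequences of lowest p per direction. The sequence pairs of U6 and U3 ends, the places on transcripts and the DESeq2 calls were chosen after seeing the data.

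The deposited counts entered edgeR 4.0.16 (TMM, quasi-likelihood test, filterByExpr, Benjamini-Hochberg over all annotated sequences, two-sided) in R 4.3.3, and DESeq2 1.42.0 as an alternative. The SE of an edgeR log2 fold change was derived as its absolute value divided by the square root of its F statistic. The fit was tested on simulated data. Shares, lengths and levels were compared by exact two-sided permutation tests over samples. Tables were made with Python 3.11.15 and pandas 2.3.3. Usual copies are the peak of the smoothed number of sequences at each copy number. Intervals and floors cover counting error only.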

Additional observations from a re-analysis of the deposited data

How the results depend on the processing

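The share of snRNA reads differed by -0.0270 percentage points (Mdd minus control) and reversed to 0.0565 when sequences from 15 nt were counted, and it ranged from -0.0763 to 0.0223 with 1 library left out. The share of snoRNA reads ranged from -0.00711 to 0.0317 in the same way, and the mean length difference from 0.412 to 1.78 nt for snRNA and from 0.470 to 2.04 nt for snoRNA. From 15 nt these were 2.15 and 2.93 nt, against 1.09 and 1.25 nt, and the snRNA groups no longer overlapped. Other denominators, labels from another file only, genome-matched fragments only and fragments found by sequence match, the last chosen after seeing the data, kept each direction. Overlap changed, however. With labels from another file only, snoRNA shares were 0.0219% and 0.0248% in Mdd libraries and 0.0124% and 0.0186% in control libraries, without overlap. Mean snoRNA lengths then overlapped, at 27.3 and 25.9 nt against 26.3 and 25.3 nt, and also did with each distinct sequence weighted once. The cause of the reversals was not tested. DESeq2 called 2 snRNA fragments where edgeR called 0. With 1 library left out, edgeR called 0 to 19 snRNA and 0 to 6 snoRNA fragments, the highest without Mdd replicate 1, where 1.47% of all sequences tested passed, and every other alternative gave 0. The fit with the replicate number as a block called 0 of both classes and reversed U3 193 to 211 to -1.08 (log2). Sign flips of same-numbered differences gave p of 0.5 or more. The labels do not say what the numbers stand for. Same-numbered samples correlated at 0.00986 in their deviations from the group means, and a shared batch was not tested. Over 9 transcript types, 36 of 36 values under other settings and 30 of 36 with 1 library left out kept their direction. U1, U2, U5 and U12, whose groups did not overlap, could not reverse with 1 library left out. With 1 library left out, U6 ranged from -0.016 to 0.27, U3 from -0.78 to 1.31, Snord from -0.64 to 0.82 and Snora from -0.39 to 1.06 on the log2 scale. From 15 nt U6 was at 0.45, U3 at 0.99 and Snord at 0.43, and by sequence match Snord was at 0.73 and Snora at 0.50, against 0.14, 0.61, 0.26 and 0.20 for U6, U3, Snord and Snora. Some of the 28 named fragments had 0 reads in both libraries of a group and could not reverse, so the next counts do not measure their stability. With these included, 202 of 203 values under other settings kept their direction, and 94 of 102 with 1 library left out. Those that reversed ranged from -1.59 to 0.25 for U6 45 to 64, from -1.59 to 0.20 for U6 43 to 64, from -3.86 to 1.22 and from -4.00 to 0.046 for Snord14c 1 to 19 and 1 to 32, from -1.93 to 3.82 for Snord49a 1 to 37, and from -0.37 to 1.57, from -2.86 to 3.95 and from -4.28 to 1.87 for U3 76 to 96, 190 to 211 and 193 to 211. Depth limits the snoRNA fragments most: 38.8% to 73.3% of their reads lay in sequences at or below 3 usual copies.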
